A study of Mus musculus with 5 samples.

Results

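The genes described here encode 10 transcription factors of the craniofacial and neural crest programme: the AP-2 factors Tfap2a, Tfap2b and Tfap2c, the Msx factors Msx1 and Msx2, the Dlx factors Dlx1, Dlx2, Dlx5 and Dlx6, and the paired-box factor Pax3. Each gene had 1 probe set, so 10 probe sets stood for the 10 genes among 21630 genes measured. The 3 AP-2 genes are listed under older symbols and were found through their transcript accessions. The genes were chosen by name with the differences between the groups of these same arrays already known, the low AP-2 signal among them. Their differences between the groups are therefore given as a description, without a test.

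The study profiled mouse embryonic fibroblasts (MEFs), primary cells cultured from embryos, that had been carried to passage 40 on a 3T3 schedule of regular replating. The 2 groups were MDR2-/- MEFs (3 arrays, KO replicates 1, 2 and 3) and MDR2+/+ MEFs from littermate embryos (2 arrays, WT replicates 2 and 3). Mdr2 is an older name of Abcb4, a phospholipid transporter best known from the liver. Nothing in the labels says how many embryos or cultures lay behind the arrays, so the spread between arrays may be technical, and a group may descend from 1 embryo.

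AP-2 factors bind GC-rich palindromes as dimers and act at the border of the neural plate, where they help to set neural crest apart from epidermis. Msx factors are homeodomain repressors induced by BMP signals, and Dlx factors are homeodomain activators expressed in nested domains of the pharyngeal arches, where endothelin signals through Edn1 and its receptor switch on Dlx5 and Dlx6 in the future lower jaw. Pax3 marks the dorsal neural tube, migrating crest and the muscle-forming part of the somite. In mouse, loss of Tfap2a or Msx1 disturbs closure of the face or palate, and loss of Tfap2b affects the kidney.

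Values are log2 signals as deposited by the authors, and differences are KO minus WT on that scale. A probe set's level depends on its own probes, so levels of different genes are not set against each other. Background was read from 45 antigenomic probe sets, designed against sequence absent from the mouse genome. Their 95th percentile (the background percentile below) lay between 5.71 and 6.08 over the arrays, and their median at 2.14 on each. Of 21630 genes, 5714 to 7149 lay above that percentile on an array, so most genes lay below it. Fewer cells of a type and less RNA per cell cannot be told apart in such bulk samples. The median log2 signal of all genes lay between 4.27 and 4.33 on the 5 arrays. Abcb4, whose signal should check the labels, was at 6.002, 4.63 and 5.74 in KO cells, against 4.05 and 3.95 in WT cells (difference 1.46 ± 0.50, SE; limma adjusted p = 0.358). It lay above the background percentile on 1 array, and the disrupted part of the gene is not given in the sources used here, so it checks the labels weakly. Because that direction goes against the label, KO below means the libraries labelled KO. Sex-linked genes separated the groups too. Xist had a log2 difference of 4.41 and the Y-linked Ddx3y of -4.40 (limma adjusted p = 0.025 and 0.0267), so genotype label and sex-linked expression cannot be told apart.

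Tfap2b, Tfap2a and Msx1 stood lower in KO cells, and their promoters are shown for that reason alone. Whether these genes share a control was not tested. The sequences are those of RefSeq on build GRCm38.p6, read 5′ to 3′ on the gene's own strand from 250 bases before to 50 bases after an annotated start. Capitals mark TAATTG or its reverse complement, a core bound by Msx and Dlx homeodomains. Tfap2b lies at chr1:19211804-19212103 (plus strand), Tfap2a has starts at chr13:40734871-40735170 and chr13:40733746-40734045 (minus strand), and Msx1 lies at chr5:37824536-37824835 (minus strand).
Tfap2b: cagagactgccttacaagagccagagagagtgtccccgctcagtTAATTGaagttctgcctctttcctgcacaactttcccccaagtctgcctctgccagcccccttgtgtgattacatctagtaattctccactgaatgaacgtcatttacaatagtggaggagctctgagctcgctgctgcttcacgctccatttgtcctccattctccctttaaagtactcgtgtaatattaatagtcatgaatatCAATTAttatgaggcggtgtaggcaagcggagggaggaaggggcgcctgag
Tfap2a, upstream start: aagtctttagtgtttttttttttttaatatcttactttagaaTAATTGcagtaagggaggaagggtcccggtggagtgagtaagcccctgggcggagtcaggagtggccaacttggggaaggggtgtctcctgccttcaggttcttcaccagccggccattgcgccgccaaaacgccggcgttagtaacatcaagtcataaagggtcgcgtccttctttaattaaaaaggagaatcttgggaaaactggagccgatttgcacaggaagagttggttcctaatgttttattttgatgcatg
Tfap2a, downstream start: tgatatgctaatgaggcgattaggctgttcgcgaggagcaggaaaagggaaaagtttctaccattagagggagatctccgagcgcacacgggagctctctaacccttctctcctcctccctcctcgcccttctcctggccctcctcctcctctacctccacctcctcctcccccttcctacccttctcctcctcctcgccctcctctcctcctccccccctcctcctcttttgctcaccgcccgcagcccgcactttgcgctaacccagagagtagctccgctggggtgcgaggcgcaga
Msx1: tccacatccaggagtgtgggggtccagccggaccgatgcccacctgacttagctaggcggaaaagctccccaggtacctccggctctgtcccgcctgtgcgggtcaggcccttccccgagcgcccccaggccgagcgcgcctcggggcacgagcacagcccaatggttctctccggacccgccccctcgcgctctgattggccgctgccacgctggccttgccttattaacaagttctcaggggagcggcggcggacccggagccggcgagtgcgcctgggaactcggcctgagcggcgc

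The Tfap2b promoter held 2 matches to TAATTG on either strand, the upstream Tfap2a promoter held 1, and the downstream Tfap2a promoter and that of Msx1 held 0. Of 32851 promoters of the same length, 8.0% held at least 1 match and 0.6% held 2 or more. The AP-2 core GCCNNNGGC, present in 16.6% of all promoters, and the TATA box TATAAA, present in 13.6%, had 0 matches in these 4 windows. As TAATTG was the only motif matched in these windows, no 2 motifs could overlap. The Tfap2b window was 48.3% GC with 8 CpG sites, the upstream Tfap2a window 46.3% with 11 and the downstream one 61.0% with 15, while the Msx1 window was 70.0% GC with 29 CpG sites, against a median of 52.7% and 7 over all promoters. Promoters of 6 of the 10 genes were matched. Those of Dlx1, Dlx2 and Msx2 held 0 matches to each of the 3 motifs. These matches are letters in a window and say nothing about binding.

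Tfap2b showed by far the widest gap. This AP-2 gene was at 3.01, 3.19 and 2.81 in KO replicates 1, 2 and 3, against 8.25 and 8.36 in WT replicates 2 and 3. All KO arrays were low and both WT arrays high, with 5.06 log2 units between the nearest arrays of the 2 groups. The means were 3.00 ± 0.19 (SD, n = 3) in KO cells and 8.31 ± 0.07 (SD, n = 2) in WT cells, a difference of -5.30 ± 0.13 (SE), or 39.4-fold. The KO values lay below the background percentile and the WT values above it, so the fold rests on KO values within the background range. With each KO array set to its own background percentile, the WT mean exceeded the KO mean by at least 5.04-fold. Ranked from the lowest difference of all 21630 genes, Tfap2b was the third. Its probe set, 10345016, has 32 probes and is annotated to chromosome 1, 19198995 to 19228815 (NCBIM37, plus strand).

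Tfap2a, the paralogue with the earliest role in crest induction, lay lower in KO cells as well. It was at 2.89, 3.09 and 2.81 in KO cells, against 5.07 and 4.67 in WT cells. The groups did not overlap, with 1.58 log2 units between their nearest arrays. The means were 2.93 ± 0.14 (SD, n = 3) in KO cells and 4.87 ± 0.28 (SD, n = 2) in WT cells, a difference of -1.94 ± 0.17 (SE). All 5 values lay below the background percentile, so neither group was clearly above background. Its probe set of 41 probes covers chromosome 13, 40811044 to 40833510 (NCBIM37, minus strand).

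Tfap2c, which acts in trophoblast, germ cells and mammary epithelium, did not share this pattern. It was at 2.39, 2.56 and 2.39 in KO cells, against 2.39 and 2.38 in WT cells, below the background percentile on every array. The groups overlapped, and the difference was 0.06 ± 0.07 (SE). Of the other AP-2 genes, Tfap2d was at 2.74 on all 5 arrays although it is the next gene to Tfap2b, 42.6 kb away on the same strand, and Tfap2e lay between 3.86 and 4.08 in KO cells and at 3.79 and 3.86 in WT cells.

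**Figure D1:**
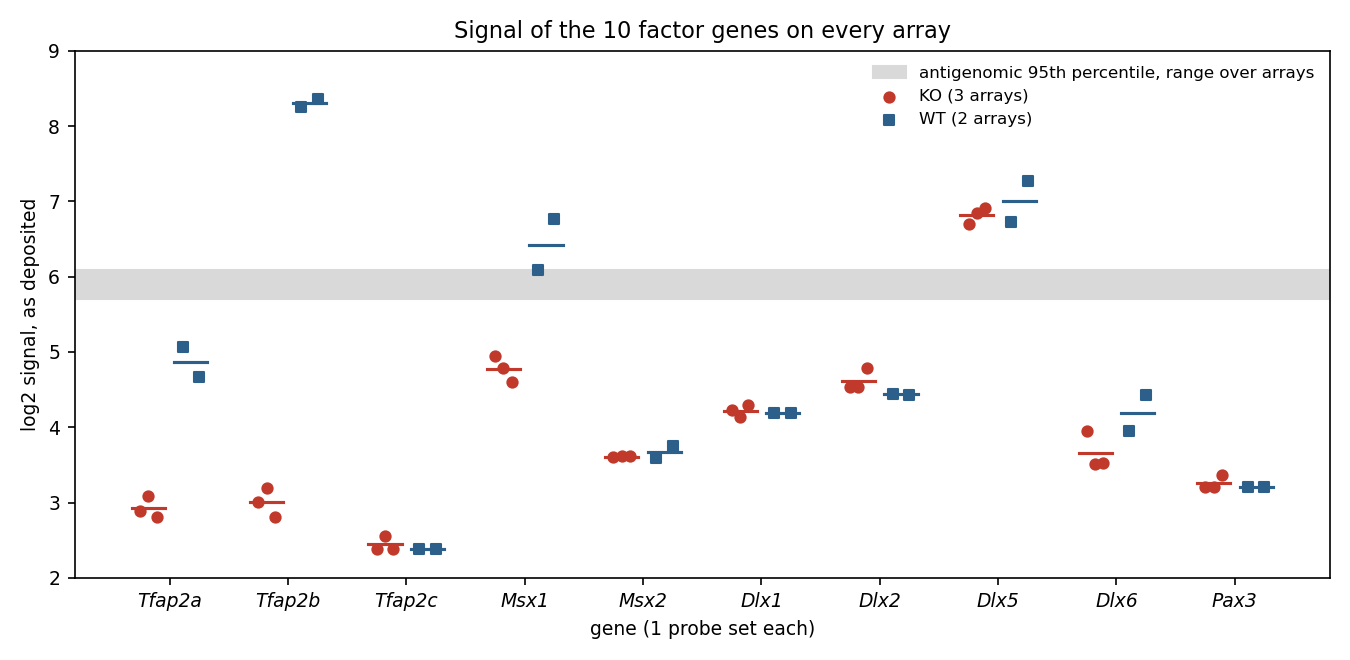
Log2 signal (vertical axis) of the 10 genes (horizontal axis) on every array. Red circles are the 3 KO arrays, blue squares the 2 WT arrays, short lines the group means, and the grey band the range over arrays of the antigenomic 95th percentile (5.71 to 6.08). The groups separate by more than 1 log2 unit for Tfap2a, Tfap2b and Msx1, and heights of different genes are not comparable.

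Msx1, the BMP-induced repressor needed for palate and teeth in mouse, was the other gene with a clear gap. It was at 4.94, 4.79 and 4.61 in KO cells, against 6.08 and 6.76 in WT cells. Both WT arrays exceeded every KO array, with 1.14 log2 units between the nearest ones. The means were 4.78 ± 0.17 (SD, n = 3) in KO cells and 6.42 ± 0.48 (SD, n = 2) in WT cells, a difference of -1.64 ± 0.26 (SE), or 3.12-fold. WT lay above the background percentile and KO below it. With KO arrays set to that percentile, the WT mean exceeded the KO mean by at least 1.36-fold. WT replicate 2, at 6.083, lay at the background percentile of KO replicate 3 (6.082), so this bound rests largely on WT replicate 3. The 2 WT arrays differed by more than the KO arrays did: the difference was -1.98 without WT replicate 2 and -1.30 without WT replicate 3. The probe set of 25 probes covers chromosome 5, 38211730 to 38215824 (NCBIM37, minus strand).

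Msx2, a regulator of skull and epidermal appendage growth, was at 3.61, 3.61 and 3.61 in KO cells, against 3.59 and 3.76 in WT cells. The groups overlapped and all values lay below the background percentile (difference -0.06 ± 0.06, SE). The third Msx gene, Msx3, which is expressed in the dorsal neural tube of the mouse, lay between 4.10 and 4.39 in KO cells and at 4.22 on both WT arrays.

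Among the Dlx genes, Dlx5 was the one with signal above the background percentile on all 5 arrays. This lower-jaw and osteoblast factor was at 6.70, 6.85 and 6.91 in KO cells, against 6.73 and 7.28 in WT cells. The groups overlapped, with WT replicate 3 the highest array, and the difference of -0.18 ± 0.20 (SE) changed sign with the WT arrays kept: -0.46 without WT replicate 2 and 0.09 without WT replicate 3. The annotated span of this probe set, chromosome 6, 6827801 to 6874963 (NCBIM37, minus strand), is 47.2 kb long, against a RefSeq gene length of 4.3 kb, so some of its 29 probes may lie outside Dlx5. For the other 9 genes the span was between 0.69 and 1.05 times the RefSeq gene length.

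Dlx6 is transcribed toward Dlx5 from 9.8 kb away, and the pair shares enhancers in the mouse arches and forebrain. It was at 3.96, 3.52 and 3.52 in KO cells, against 3.96 and 4.43 in WT cells. KO replicate 1 equalled WT replicate 2, so the groups met, and the difference was -0.53 ± 0.23 (SE). All values lay below the background percentile.

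Dlx1 and Dlx2, the paired genes of the upper jaw and of forebrain interneurons, face each other across 9.4 kb of chromosome 2. Dlx1 was at 4.24, 4.13 and 4.30 in KO cells, against 4.19 and 4.19 in WT cells, with overlapping groups and a difference of 0.04 ± 0.06 (SE). Dlx2 was at 4.53, 4.53 and 4.79 in KO cells, against 4.45 and 4.43 in WT cells. Its groups did not overlap, but only 0.09 log2 units separated the nearest arrays (difference 0.18 ± 0.10, SE). Both genes stayed below the background percentile, as did Dlx3 and Dlx4, whose differences were -0.03 ± 0.07 and 0.08 ± 0.06 (SE). The antisense transcript Dlx1as, which lies between Dlx1 and Dlx2, was at 3.66, 2.96 and 3.33 in KO cells, against 3.20 and 3.20 in WT cells.

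Pax3 was at 3.20, 3.20 and 3.37 in KO cells, against 3.20 and 3.20 in WT cells. It held 2 distinct values over 5 arrays and lay below the background percentile throughout (difference 0.05 ± 0.06, SE). Repeated values of this kind occur across the table, where 1589 genes had equal values on all 5 arrays.

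Set side by side, 3 of the 10 genes had KO and WT values that did not overlap with KO lower, 1 (Dlx2) with KO higher, and 6 overlapped. Over all genes tested, KO was lower without overlap for 14.4% and higher without overlap for 10.6%. The same 3 genes, Tfap2a, Tfap2b and Msx1, also differed by -1 or lower, as did 1.78% of all genes. The median difference of the 10 genes was -0.12, against 0 over all genes. In 6 of the 10 genes the difference was under 0.2 in size, as in 67.8% of all genes. With limma and Benjamini-Hochberg adjustment over all genes, 1 of the 10, Tfap2b, passed an adjusted p of 0.05, beside 0.301% of all genes in either direction and 0.148% in the lower direction. Since these differences chose the genes, nothing is read from the counts. The difference of Tfap2b lay between -5.40 and -5.21 with any 1 array left out.

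**Figure D2:**
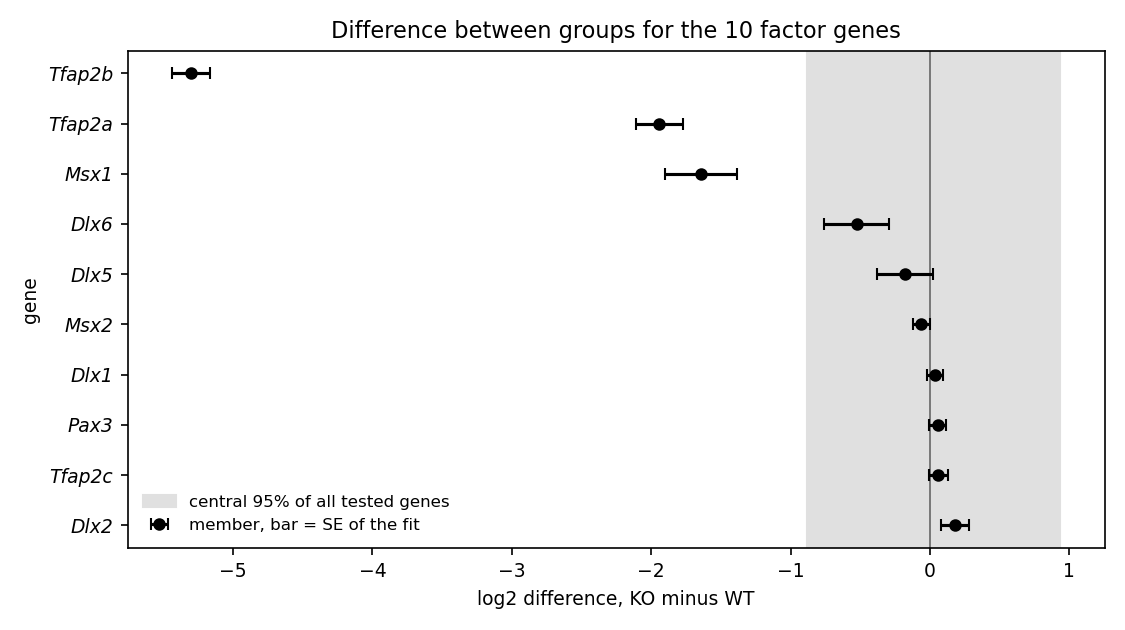
Log2 difference, KO minus WT (horizontal axis), of the 10 genes (vertical axis, ordered by difference). Points are fitted differences, bars their SE, and the grey band spans the central 95% of all 21630 genes (-0.88 to 0.94). Tfap2b at -5.30, Tfap2a at -1.94 and Msx1 at -1.64 lie outside the band and the other genes inside it.

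No gene measured within 1 Mb of the 3 lower factors had a difference as low as its factor's, while 1 gene near Msx1 differed by more in the other direction. The 3 factors were picked for their low values, so nothing is read from this. Among the neighbours, Tfap2d, Ofcc1, Gcnt2 and Cytl1 lay below the background percentile on every array, as Tfap2a itself did. This limits what their differences show. Tfap2d and Ofcc1 held the same value on all 5 arrays. For neighbours, only genes whose array annotation and RefSeq entry name the same chromosome were used. Within 1 Mb of Tfap2b 3 genes were measured, with differences between -0.02 and 0.01. Within 1 Mb of Tfap2a 11 genes lay between -0.73 and 0.01, the lowest being Nedd9, a focal adhesion scaffold. Within 1 Mb of Msx1 20 genes lay between -0.56 (Stx18) and 2.63 (Nsg1, a neuronal endosomal protein). Of these genes 0 passed limma's test, with 0, 2 and 1 at an unadjusted p under 0.05. The nearest measured genes on either side of Msx1, Cytl1 and Stx18, had differences of 0.01 ± 0.02 and -0.56 ± 0.27 (SE), and those beside Tfap2a, Ofcc1 and Gcnt2, of 0.00 and -0.22 ± 0.12 (SE). The next genes of the remaining factors differed by less than 0.25 in size, apart from Dlx6 and Dlx5, which are each other's neighbour, and 1 gene near Pax3. There the ephrin receptor gene Epha4, 587.5 kb away, was at 4.13, 3.75 and 4.24 in KO cells, against 6.46 and 6.57 in WT cells (difference -2.47 ± 0.18, SE; adjusted p = 0.0581). The KO values of Epha4 lay below the background percentile.

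**Figure D3:**
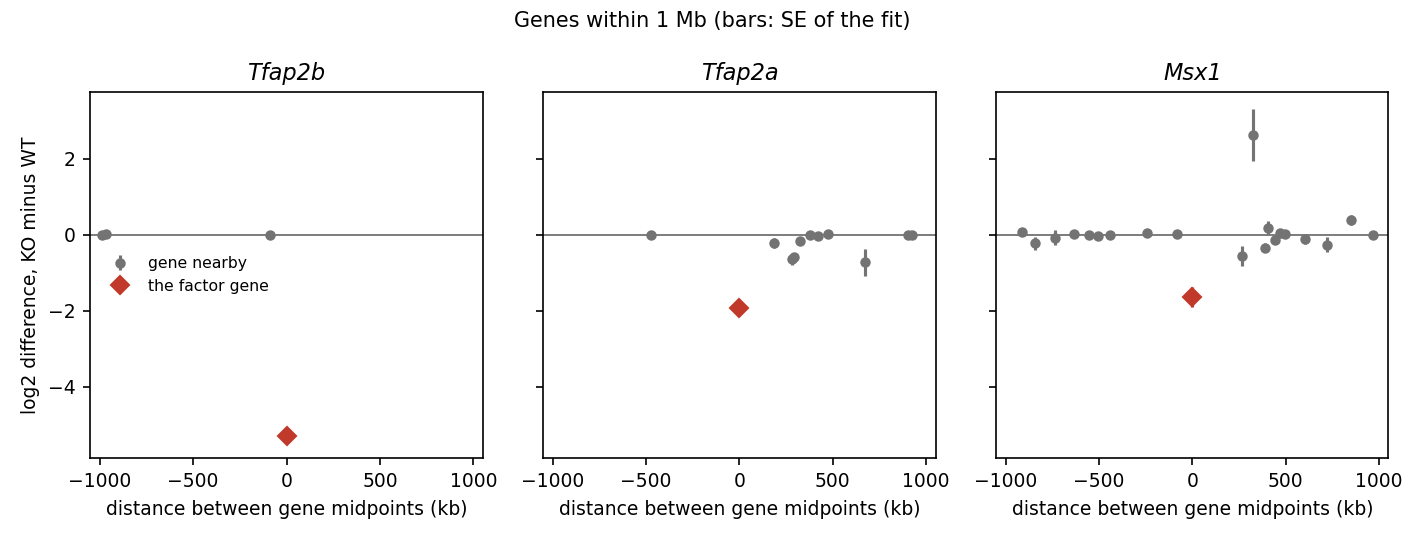
Log2 difference, KO minus WT (vertical axis), of genes within 1 Mb against the distance between gene midpoints in kb (horizontal axis) for Tfap2b, Tfap2a and Msx1. Red diamonds are the 3 factor genes, grey points the 3, 11 and 20 nearby genes, and bars the SE. Each factor lies below every neighbour in its panel, but some neighbours lay below the background percentile on every array.

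The genes that act with these factors were taken as lists, by role. Over all 21630 genes, 1159 were higher and 1793 lower at an unadjusted p under 0.05, for comparison with the unadjusted counts of each list. All other members of the 4 families, 13 genes, lay below the background percentile on every array. Of them 0 passed limma's test (1 lower at an unadjusted p under 0.05), and the median difference was 0. Among 27 genes of the neural plate border and of crest specification, 1 rose, 0 fell and 26 did not pass, with a median of 0.07 (4 higher and 2 lower at an unadjusted p under 0.05). The gene that rose was Snai2, the zinc finger repressor of crest and mesenchyme. It was at 10.34, 10.10 and 10.21 in KO cells, against 7.42 and 7.66 in WT cells (difference 2.68 ± 0.12, SE; adjusted p = 0.0288). Lmo4, a LIM-only cofactor, had a difference of 0.99 ± 0.09 (SE; adjusted p = 0.0765). The BMP target Id3 was bright in both groups, with overlapping values and a difference of 0.48 ± 0.27 (SE; adjusted p = 0.554).

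Among 42 factors of the pharyngeal arches and facial mesenchyme, 1 rose, 1 fell and 40 did not pass (9 higher and 3 lower at an unadjusted p under 0.05). Their median difference was 0.13, and 30 of the 42 differences were above 0, as were 10489 of 21630 over all genes. Foxc1, a forkhead factor of skull and eye mesenchyme, was at 7.40, 7.42 and 7.27 in KO cells, against 5.33 and 5.28 in WT cells (difference 2.06 ± 0.06, SE; adjusted p = 0.024). Its paralogue Foxc2 had a difference of -1.24 ± 0.22 (SE; adjusted p = 0.165).

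Of the arch factors that did not pass, Pitx1, the hindlimb and mandible homeodomain factor, was at 7.56, 8.01 and 7.69 in KO cells, against 5.46 and 5.55 in WT cells (difference 2.25, adjusted p = 0.0573). Mab21l1 and Foxf1 had differences of 1.72 and 1.35 (limma adjusted p = 0.219 and 0.167). Mab21l1 lay below the background percentile on every array. The WT values of Foxc1, Pitx1 and Foxf1 also lay below it, so their differences rest on WT values in the background range. The mesenchymal homeodomain genes Prrx1 and Prrx2 were bright in both groups, with differences of -0.60 ± 0.10 and 0.35 ± 0.21 (SE; adjusted p = 0.169 and 0.554). The calls on Snai2 and Foxc1 ended without any 1 KO array and without WT replicate 2.

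Signals upstream of the factors did not pass the test. Of 22 endothelin and BMP pathway genes 0 passed with limma, with 1 higher and 4 lower at an unadjusted p under 0.05, and their median was 0.02. The endothelin ligand gene Edn1 was at 3.82, 3.15 and 3.80 in KO cells, against 5.26 and 5.67 in WT cells, and its receptor gene Ednra at 3.30, 3.83 and 3.77, against 5.27 and 6.13 in WT cells. Both had non-overlapping groups with KO lower (differences -1.88 ± 0.30 and -2.06 ± 0.35, SE; adjusted p = 0.147 and 0.16). Edn1 lay below the background percentile on every array and Ednra above it on 1, so these differences rest largely on values in the background range. Ece1, which encodes the enzyme that matures endothelin, lay the other way, at 7.96, 7.41 and 7.43 in KO cells, against 6.01 and 6.14 in WT cells (adjusted p = 0.131).

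Proteins that bind these factors gave a similar count. Of 10 partner genes 0 passed with limma, with 1 lower at an unadjusted p under 0.05 and a median of 0.01. That gene was Ndn, which encodes necdin, a MAGE protein reported to act with Dlx and Msx factors. It was at 3.25, 2.87 and 3.37 in KO cells, against 5.47 and 5.52 in WT cells (difference -2.33 ± 0.18, SE; adjusted p = 0.0598), all below the background percentile. Its relative Maged1 was bright in both groups (difference 0.25 ± 0.09, SE; adjusted p = 0.375), as was Cited2, a coactivator of AP-2 factors (0.17 ± 0.30, SE; adjusted p = 0.778).

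Osteoblast genes that Msx2 and Dlx5 are reported to regulate had 0 of 8 past the test, with 1 higher and 1 lower at an unadjusted p under 0.05 and a median of 0.14. The matrix protein gene Spp1 was at 9.46, 9.30 and 8.98 in KO cells, against 3.81 and 4.76 in WT cells (difference 4.96 ± 0.36, SE; adjusted p = 0.0586). The WT values of Spp1 lay below the background percentile, so its difference rests on WT values in the background range. The collagen gene Col1a1 was bright in both groups, with a difference of -0.82 ± 0.23 (SE; adjusted p = 0.282). Lmo4, Pitx1, Ndn and Spp1 passed under each of 4 other settings, which changed the scaling between arrays or left out dim genes or those without any variation. They did not pass with a robust or trended prior variance, with a replicate block or without any 1 KO array.

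**Figure D4:**
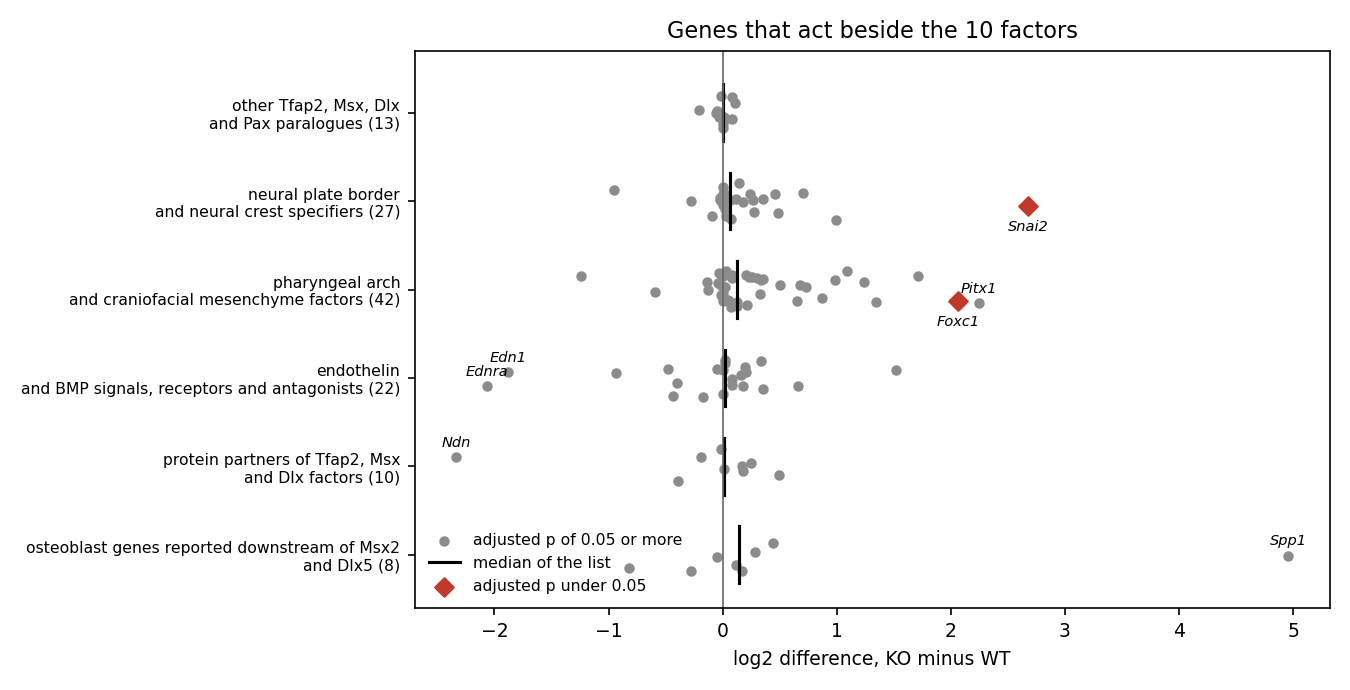
Log2 difference, KO minus WT (horizontal axis), of the genes in 6 lists (vertical axis, number measured in brackets). Red diamonds passed an adjusted p of 0.05, grey points did not, and black bars are list medians. Snai2 and Foxc1 lie to the right of 0, all 6 list medians lie between 0 and 0.14, and 3 genes counted in the lists and medians are not drawn.

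Markers of cell types in which AP-2, Msx or Pax3 genes are active were examined beside these values. Of 10 fibroblast markers, 8 lay above the background percentile on every array, among them Vim, Col1a2 and Pdgfra, while Lum lay below it on all. The fibroblast surface marker Thy1 was at 10.55, 9.70 and 10.16 in KO cells, against 5.60 and 5.22 in WT cells (limma adjusted p = 0.0523). Its WT values lay below the background percentile. Most fibroblast markers went the other way: 8 of the 10 differences were below 0 and 2 above, with a median of -0.23. The summed level of the 10 was 13.23 to 13.5 in KO cells and 13.69 to 13.87 in WT cells. The 12 epithelial markers, with Cdh1, Epcam, Krt5, Krt14 and Trp63, lay below the background percentile on every array, and their summed level was 7.45 to 7.67 (log2) in KO cells and 7.28 to 7.38 in WT cells. The 8 Schwann cell and glial markers, Sox10 and Foxd3 among them, and the 6 melanocyte markers also lay below it throughout. Their summed levels were 6.74 to 6.78 and 6.32 to 6.68 in KO cells, against 6.60 to 6.68 and 6.11 to 6.24 in WT cells. The 6 muscle precursor markers, Pax7 and Myod1 among them, were likewise below it, at 5.92 to 6.02 summed in KO cells and 5.97 to 5.99 in WT cells. The label of fibroblasts thus had its main markers present, and no defining marker of epidermis, glia, melanocytes or muscle precursors lay above background on any array. The part of Thy1 and of the sex-linked genes in the differences of the 10 factors was not tested.

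Most of the remaining markers also lay below the background percentile. Of 8 neuronal markers 7 lay below the background percentile on every array, and the summed level was 8.06 to 9.28 in KO cells and 7.51 to 7.74 in WT cells. Stmn2 alone lay above it on all arrays (difference 1.59 ± 0.62, SE; adjusted p = 0.427). The 5 endothelial markers lay below it throughout, at 5.34 to 5.36 summed in KO cells and 5.30 to 5.35 in WT cells. Of 5 macrophage and blood markers 4 lay below it throughout, with summed levels of 6.28 to 6.55 in KO cells and 6.35 to 6.97 in WT cells. The other, Cd68, lay above the background percentile on WT replicate 2 only, at 6.25, against 4.35 on WT replicate 3. In each of the 8 marker lists 0 genes passed with limma, and at an unadjusted p under 0.05 there were 2 higher and 3 lower fibroblast markers, 1 higher epithelial marker, 1 higher glial marker and 0 in the other lists. The epithelial marker was Cdh1, at 4.99, 5.34 and 5.63 in KO cells, against 3.88 and 4.38 in WT cells. Its difference was 1.19 ± 0.28 (SE; limma adjusted p = 0.224), with all values below the background percentile.

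The genes whose profile over the 5 arrays lay nearest to that of Tfap2b, by Euclidean distance after each gene's own mean was subtracted, were Aldh3a1 (distance 0.46), Ccdc68 (0.63) and the Y-linked Eif2s3y (0.68). Aldh3a1 was at 4.30, 4.26 and 3.92 in KO cells, against 8.98 and 9.65 in WT cells. Ccdc68 was at 3.78, 3.25 and 3.56 in KO cells, against 8.69 and 8.61 in WT cells. Eif2s3y was at 1.73, 1.83 and 2.10 in KO cells, against 6.61 and 7.15 in WT cells, so a gene of the Y chromosome separated the arrays in the way Tfap2b did. The KO values of Aldh3a1, Ccdc68 and Eif2s3y lay below the background percentile. For Dlx2, the gene with the highest difference of the 10, the nearest were Tex19.2 (0.03), Prlh (0.05) and Ngef (0.05), whose own differences lay between 0.16 and 0.20.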

How the data were processed

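Affymetrix arrays of 5 RNA samples, each amplified from 50 ng of total RNA per the labels, were compared between 3 KO and 2 WT arrays. The authors deposited 1 log2 value per probe set and array. Per the submitters' processing notes they come from Affymetrix Expression Console; its version is not used here, and how probes were summarised is not given in the sources used here. A second deposited table held the same log2 values (0 of 35556 probe sets differed). Control probe sets (7115) were left out. Symbols were updated through RefSeq tables of GRCm38.p6: 22271 probe sets matched by accession, 1969 by symbol, and 764 kept the array's symbol. The brightest probe set stood for each of 21630 genes. Coordinates are the array annotation's, taken as NCBIM37: 2759 of 2980 probe sets whose annotation states an NCBIM37 position overlap it.

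The test of KO against WT was limma's (version 3.58.1, R 4.3.3), with lmFit, eBayes and Benjamini-Hochberg adjustment, a threshold of 0.05 and no block. All adjusted p-values are from this fit, SE is its moderated standard error, and the number of arrays limits the precision. Scripts were checked on simulated data. The members and lists were chosen with earlier results of these data known. Named were all members, Abcb4, list genes past the threshold or, at most 4 a list, with a difference of at least 1 in size, up to 3 bright genes of a list, nearest neighbours, and the 3 nearest profiles. Other genes in the text, and the 1 Mb windows, were picked with their values known. The list members Dlx6as1, Dlx6os1, Dlx6os2, Dlx4os and Msx1as were not analysed here. Some list genes are counted but not reported here by name. Settings tried besides were quantile normalization repeated on the genes, array medians subtracted, the dimmest genes (under the 40th percentile of mean signal) or genes of equal values left out, robust and trended prior variances, each probe set on its own, a replicate block, and leaving out each array.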

Additional observations from a re-analysis of the deposited data

How the results depend on the processing

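Differences of Tfap2b, Tfap2a, Msx1 and Dlx6 kept their sign under every alternative run (-5.40 to -5.21, -2.14 to -1.74, -1.98 to -1.30 and -0.76 to -0.29). No KO value of these genes lay above a WT value, so leaving out an array could not reverse the sign. Nothing is read from the kept signs. The count of all genes past the threshold, 65 with every array, was 363 on a second quantile normalization, 250 on subtraction of array medians, 270 without dim genes and 359 without genes of equal values. Under each of these 4 settings the members' count went to 2 (Tfap2a joined Tfap2b), that of neural crest specifiers to 3, and those of partner genes and of osteoblast genes to 1 each. Without any 1 KO array the members' count was 0. These differences chose the members, so nothing is read from their counts, and Tfap2a lay below the background percentile on every array. Leaving out single arrays gave 0 to 335 genes, 0 to 1 members, 0 to 1 crest specifiers, 0 to 2 arch factors and 0 to 1 osteoblast genes; with limma 0 genes passed without KO replicate 1 or KO replicate 3 (2297 and 2196 at an unadjusted p under 0.05), 2 without KO replicate 2, 189 without WT replicate 2 and 335 without WT replicate 3. Where an arm kept 1 array, it was assumed to vary like the other group. With the replicate number as a block, 0 genes, 0 members, 0 crest specifiers and 0 arch factors passed with limma (2319, 2, 6 and 8 at an unadjusted p under 0.05). That fit leaves 1 residual degree of freedom, and the differences of KO and WT between numbers 2 and 3 correlated at -0.174 over genes, so the numbers were not taken to pair the arrays. Msx2 had a difference of -0.15 without WT replicate 2 and 0.02 without WT replicate 3. Robust and trended prior variances and the test of each probe set kept every count within 1.5 times. Signals below the background percentile limit what can be said of 7 of the 10 genes. Most of all 21630 genes also lay below it, with 5714 to 7149 above it on an array. The causes of these changes were not tested.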
